A study of Mus musculus with 14 samples.

Results

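In iMEF cells, 617 stretches of the genome carried 10 or more H3K27ac sites in close succession. These clusters were made by joining neighbouring sites on chromosomes 1 to 19 and X wherever the gap between them was under 1000 bp, and keeping the joined regions of 10 or more sites. They were thus chosen by the positions and the number of the sites themselves, and the number of sites, the gaps and what follows from them directly are given as a description. The 617 clusters were 0.999% of the 61769 joined regions and held 8618 of 122171 sites, or 7.05%.

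The study followed histone marks in immortalised mouse embryo fibroblasts after degradation of ASH2L, a core subunit of the COMPASS/KMT2 methyltransferases. In all libraries, controls included, the cells carried a deletion in endogenous Ash2l and depended on a lentivirally expressed human ASH2L with an FKBP tag. The cells came from a single clone (NG3), and dTAG-13 leads to degradation of the tagged protein. H3K27ac ChIP-seq comprised 12 libraries, 2 of untreated control cells and 2 at each of 5 times after addition of dTAG (30 min, then 2, 4, 8 and 16 h). An input library, chromatin without immunoprecipitation, was made for control cells and for the 16 h time. The sites found in any sample were deposited as a single list of positions (mm10). The list gave no signal or read count, and no sample was named for a site. The depth behind a site could therefore not be read from it, replicate error could not be given for any value, and the clusters describe the cells over all time points together, not a response to dTAG.

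Acetylation of histone H3 at lysine 27 is laid down mainly by the acetyltransferases p300 and CBP and marks active promoters and active enhancers. Enhancers often lie close together along the chromosome, and dense groups of them are found near genes that define a cell type. In fibroblasts such genes encode collagens and other matrix proteins, the actin cytoskeleton and its adhesions. AP-1 and TEAD factors are known to bind many fibroblast enhancers.

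As examples of DNA sequence, the site with most AP-1 letters in each of the 3 clusters with most sites is shown. These sites were picked for the letters and do not stand for cluster sites in general. In the middle 200 bp, AP-1 letters were found in 4.64% of cluster sites and in 5.83% of other sites. The middle 300 bp, or the whole site where it was narrower, is printed 5′ to 3′ on the forward strand of GRCm38. The letters of AP-1, TGAGTCA or on the other strand TGACTCA, are in capitals. The first site was inside 2010111I01Rik at chr13:63253145-63253444. It also lay in Gm47603, which is not annotated as protein-coding, and overlapped an annotated exon, which need not be one of 2010111I01Rik. The second was in an intron of Adamtsl3 at chr7:82416375-82416674, and the third lay outside any annotated gene at chr2:117641067-117641286.
2010111I01Rik: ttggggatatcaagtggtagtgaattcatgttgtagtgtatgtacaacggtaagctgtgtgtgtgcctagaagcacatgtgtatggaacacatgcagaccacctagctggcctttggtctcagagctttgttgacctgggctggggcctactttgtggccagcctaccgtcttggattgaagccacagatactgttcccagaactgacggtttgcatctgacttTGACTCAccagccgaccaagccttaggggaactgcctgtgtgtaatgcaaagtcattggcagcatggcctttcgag
Adamtsl3: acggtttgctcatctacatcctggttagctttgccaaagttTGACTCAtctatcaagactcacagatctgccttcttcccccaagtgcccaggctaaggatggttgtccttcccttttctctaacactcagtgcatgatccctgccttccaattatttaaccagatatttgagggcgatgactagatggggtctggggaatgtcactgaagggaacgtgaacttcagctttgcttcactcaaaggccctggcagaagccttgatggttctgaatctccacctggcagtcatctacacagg
chromosome 2 intergenic: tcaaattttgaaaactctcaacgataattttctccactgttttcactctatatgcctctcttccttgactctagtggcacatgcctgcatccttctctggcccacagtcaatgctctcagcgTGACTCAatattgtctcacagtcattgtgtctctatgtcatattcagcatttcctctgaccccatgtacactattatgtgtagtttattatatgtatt
A further sequence is the 200 bp upstream of the annotated 5′ end of Col1a1, a main fibroblast gene that encodes a chain of type I collagen (chr11:94936024-94936223, forward strand). It lay inside a single site of 22711 bp, and a GC box, GGGCGG, is in capitals.
Col1a1: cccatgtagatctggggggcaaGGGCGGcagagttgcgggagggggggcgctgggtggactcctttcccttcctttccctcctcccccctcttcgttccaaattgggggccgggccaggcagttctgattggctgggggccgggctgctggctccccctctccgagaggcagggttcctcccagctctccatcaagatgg

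Each of the first 3 sequences held a single AP-1 match, and no site of these 3 clusters had more in its middle 300 bp. The Adamtsl3 sequence also held a TEAD match, and the Col1a1 sequence had no AP-1 match.

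Most clusters were only slightly larger than the rule demands. The number of sites ranged from 10 to 53 with a median of 12 (quartiles 11 and 16). There were 140 clusters with exactly 10 sites, 335 clusters (54.3%) had 10 to 12, whereas 66 had at least 20 and 12 had at least 30. Length ranged from 5566 to 76431 bp with a median of 13803 bp (quartiles 10382 and 19390 bp). A length above 20 kb was reached by 143 clusters, above 30 kb by 49 and above 50 kb by 11. Together the clusters spanned 10.3 Mb, 0.389% of these chromosomes, and the sites within them covered 7.71 Mb, which was 9.80% of the base pairs of all sites.

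**Figure D1:**
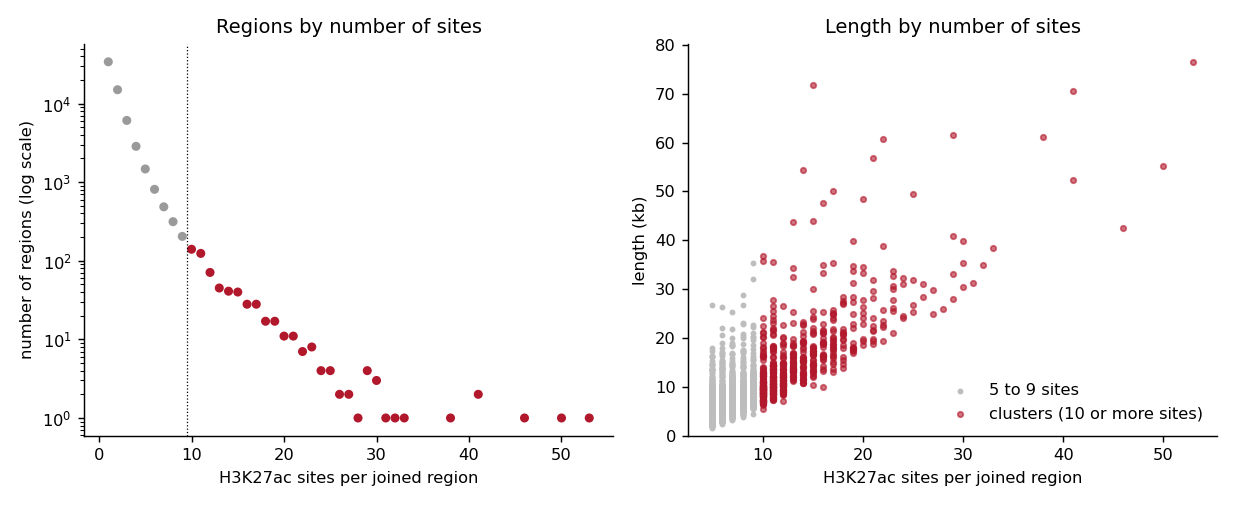
Joined regions by size. Left, the number of regions (log scale) for each number of sites per region, with the 617 clusters in red to the right of the dotted line; right, length in kb against the number of sites for each region of 5 or more sites. Counts fall steadily across the line, with 204 regions of 9 sites and 140 of 10, and the longest cluster measures 76431 bp.

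Regions on either side of the limit of 10 sites were alike in these measures. Just outside it were 204 regions of 9 sites, with a length of 4557 to 35400 bp (median 9036 bp), and 70.5% of a region was covered by sites at the median. Just inside it were the 140 clusters of 10 sites, with 5566 to 36851 bp (median 9674.5 bp) and 70.7% covered. A TSS lay in 41.2% of the regions of 9 sites and in 41.4% of those of 10.

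Sites filled most of a typical cluster, but not of every one. The share of the length covered ranged from 33.3 to 94.9% with a median of 72.6% (quartiles 64.6 and 79.8%). The gaps between sites had a median of 244 bp, compared to 253 bp in regions of 5 to 9 sites and 245 bp in regions of 2 to 4. Clusters had gaps of about the same length as smaller joined regions, and all of these gaps were bounded by the rule.

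The number of sites and the length did not rank the regions alike. A wide site counted only once, and 43.2% of the 44 sites over 10000 bp and 23.4% of the 869 sites over 4000 bp were in clusters. Among the 617 longest joined regions, 405 were clusters (65.6% of each list), 180 had 5 to 9 sites and 32 had fewer. Of the regions with fewer than 10 sites, 105 were at least as long as the median cluster.

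The cluster with most sites, 53 over 76431 bp (chr13:63238359-63314789), was also the longest. It lay wholly inside 2010111I01Rik, reached into Fancc, a gene of DNA crosslink repair, and contained the genes of Mir23b, Mir27b, Mir24-1 and Mir3074-1. With 27 TSS positions it also had more TSSs than any other cluster, but only 3 of them belonged to protein-coding transcripts. Of its 53 sites 14 overlapped an exon, and 79.6% of its length was covered.

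The second, with 50 sites over 55295 bp, was inside Adamtsl3, a matrix-associated glycoprotein gene (chr7:82386262-82441556). It was mostly intronic, since 2 of the 50 sites touched an exon. The third contained 46 sites over 42561 bp (chr2:117639363-117681923) and overlapped no annotated gene. The nearest protein-coding gene, Rasgrp1, was 296361 bp away and the nearest TSS 121741 bp away.

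Ccn4, which encodes a secreted matricellular protein, carried 41 sites over 70579 bp, around its 5′ end (chr15:66855434-66926012). Iqgap1, a scaffold that links actin to signalling, held 41 sites over 52319 bp (chr7:80741239-80793557), and 11 of them overlapped an exon. A cluster of 38 sites over 61132 bp lay within Pvt1, a long non-coding RNA gene downstream of Myc (chr15:62101542-62162673), 111167 bp from Myc.

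The remaining 4 of the 10 clusters with most sites were each inside a protein-coding gene. Igfbp7, encoding a secreted growth factor binding protein, held 33 sites over 38403 bp. Cyth3, an exchange factor for ARF GTPases, held 32 sites over 34892 bp. Foxp1, a forkhead transcription factor, held 31 sites over 31255 bp and none touched an exon. Dlgap1, known as a scaffold of the postsynaptic density, held 30 sites over 39918 bp. A TSS of a protein-coding transcript lay in 3 of these 10 clusters, compared to 34.2% of all 617 clusters.

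**Figure D2:**
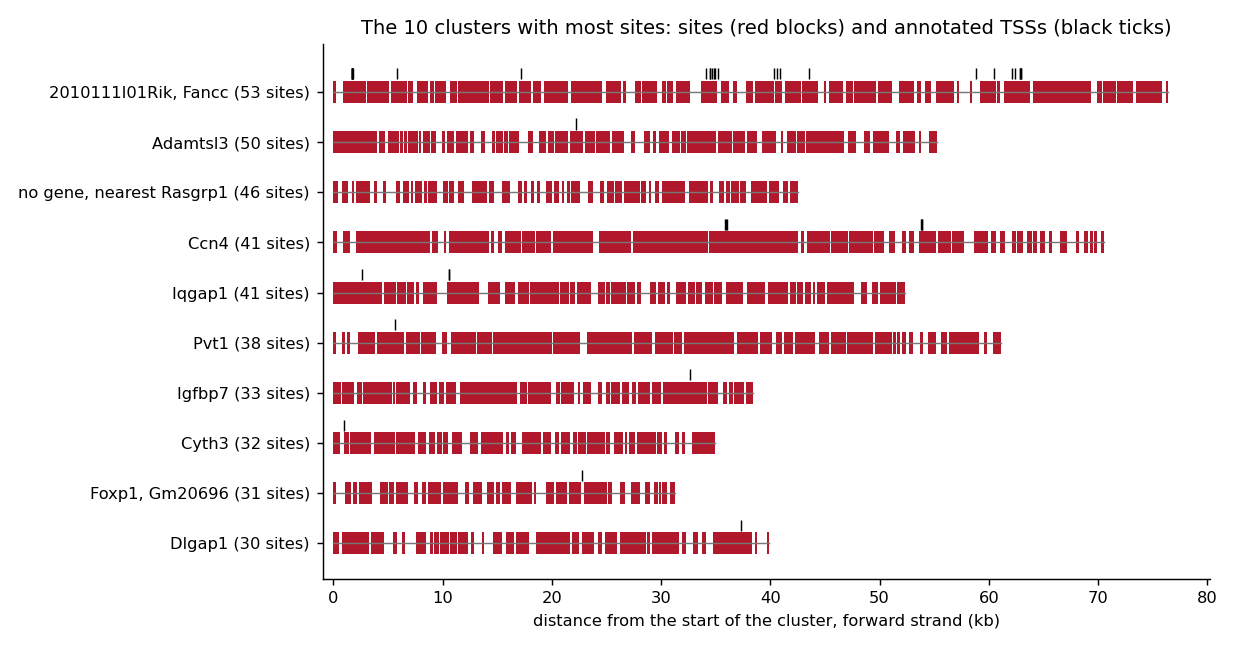
The 10 clusters with most sites drawn to scale. The x axis is the distance in kb from the start of each cluster on the forward strand, red blocks are sites, the thin line is the cluster and black ticks above it are TSS positions of annotated transcripts; the cluster in 2010111I01Rik has 27 TSS positions, while the third cluster has none.

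Among the 5 longest clusters were also Myh9 and Nxn. Myh9, the heavy chain gene of non-muscle myosin IIA, had 71770 bp with 15 sites (chr15:77773184-77844953), the widest of 16311 bp. Nxn, which encodes the thioredoxin-like protein nucleoredoxin, had 61467 bp with 29 sites, of which none overlapped an exon (chr11:76282986-76344452). Both were densely covered, with 94.7 and 85.4%.

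The cluster with the highest share covered was at Col1a1 (94.9%, 10 sites over 35709 bp, chr11:94925380-94961088). It spanned the whole gene. Myh9 came next, followed by Smad7, an inhibitor of TGF-beta signalling, with 94.3% (10 sites over 36851 bp). The widest site measured 22711 bp at Col1a1, 16311 bp at Myh9 and 11509 bp at Smad7. The lowest share was at another collagen gene, Col5a2, with 33.3% (10 sites over 9153 bp, none wider than 376 bp, chr1:45387066-45396218). It was followed by 4931406P16Rik with 39.4% and by Cdh18, a cadherin gene, with 42.5%.

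The next question was whether clusters contained TSSs. At least 1 TSS lay in 322 clusters (52.2%, 95% Wilson interval 48.2 to 56.1%, which covers counting error only), and 211 (34.2%) contained a TSS of a protein-coding transcript. In 111 clusters all TSSs belonged to other transcripts. In all, 1106 of 130588 TSS positions were inside a cluster (0.847%). The 295 clusters without a TSS were a median of 14012 bp from one, 183 of them by more than 10 kb and 35 by more than 50 kb.

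The share of regions with a TSS rose with the number of sites, but so did their length. It was 14.7% for single sites, 27.6% for 2 to 4 sites, 31.2% for 5 to 9 and 52.2% for clusters. Per 100 kb of region the order was turned around, with 86.2, 50.2, 16.9 and 10.8 TSS positions. Within the clusters the share rose from 41.4% of those with 10 sites to 72.7% of those with 20 or more (interval 61.0 to 82.0%), whereas the TSS positions per 100 kb were 14.4 and 10.3.

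**Figure D3:**
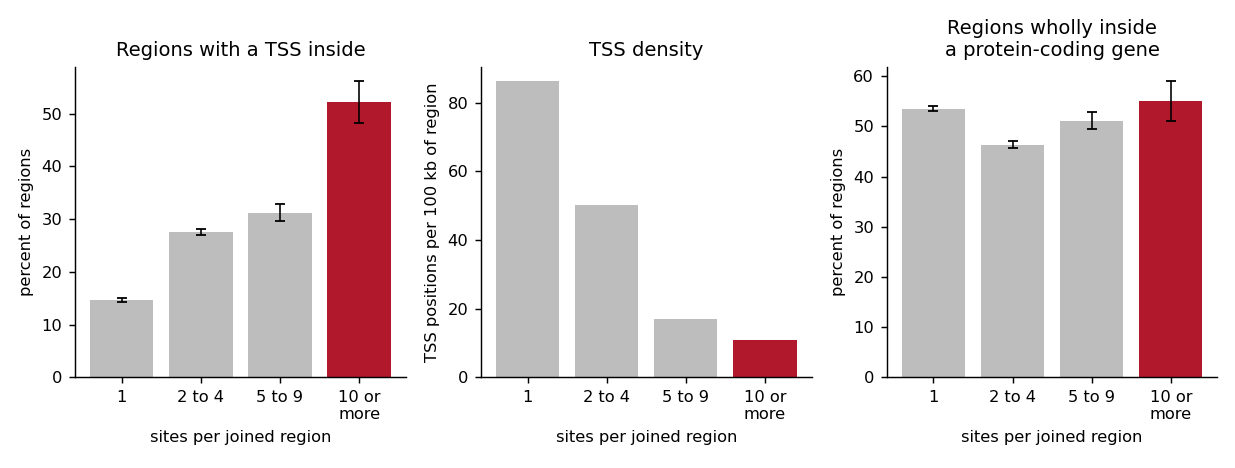
Joined regions by number of sites. Bars show the percent of regions with a TSS inside (left), the number of TSS positions per 100 kb of region (middle) and the percent of regions wholly inside a protein-coding gene (right), and error bars are 95% Wilson intervals. Clusters, in red, have the highest share with a TSS (52.2%) and the lowest TSS density (10.8 per 100 kb).

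CpG islands (CGIs) are GC-rich stretches found at many promoters. A CGI overlapped 151 clusters (24.5%), and 142 of these also had a TSS. The share was 12.7% for single sites, 20.8% for 2 to 4 sites and 17.7% for 5 to 9 sites, so that it did not rise at each step. Per 100 kb there were 23.5, 10.8, 3.52 and 1.97 CGIs from single sites to clusters. Median GC content fell from 49.9% in single sites to 45.2% in clusters.

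Clusters with a TSS were larger. Their median length was 16254 bp and their widest site had a median of 2924.5 bp, compared to 12002 and 1869 bp for the clusters without a TSS. Among the 322 clusters with a TSS, the middle of the widest site was within 1 kb of a TSS in 125 (38.8%). For all sites in these clusters the share was 15.0%. Only the middle was read, so that a wide site can contain a TSS and still not be counted.

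Besides 2010111I01Rik, the clusters with most TSS positions were at Tpm1, at the Cd151 and Polr2l locus and around Mir125b-1, among others. Tpm1, an actin-binding tropomyosin gene with many transcripts, had 21 TSS positions in a cluster of 29 sites (chr9:67017884-67050919). The locus of Cracr2b, Cd151, Polr2l and Tspan4 also had 21 positions, in a cluster of 10 sites over 16979 bp that overlapped 3 CGIs. The Mir125b-1 locus had 18 positions, and none of them belonged to a protein-coding transcript.

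Next, the clusters were assigned to genes. Of the 617 clusters, 340 were wholly inside a protein-coding gene (55.1%, interval 51.2 to 59.0%) and 152 overlapped one in part (24.6%). A further 68 overlapped only non-coding genes (11.02%), and 57 overlapped no annotated gene (9.24%). The clusters that overlapped a coding gene in part had the highest median GC content, 47.2%, and those outside all genes the lowest, 43.5%.

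The base pairs of the clusters were mainly intronic. Introns of protein-coding genes made up 69.0%, exons 5.26% and sequence outside these genes 25.7%, compared to 35.7, 3.64 and 60.6% of the chromosomes. In single sites exons took a larger part, with 14.6%, and introns a smaller one, with 48.2%. Of the smaller regions, 53.6% of single sites, 46.4% of regions of 2 to 4 and 51.2% of regions of 5 to 9 sites were wholly inside a protein-coding gene. The interval for clusters lay above that for 2 to 4 sites (45.76 to 47.02%). It overlapped those for single sites (53.03 to 54.10%) and for 5 to 9 sites (49.46 to 52.88%).

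Inside the genes that held them, clusters were found along the whole span. When the gene was divided into 4 equal parts from its 5′ end, the middle of the cluster was in the successive parts in 63, 106, 110 and 61 cases. These counts leave out clusters that reach over an end of the gene, and 171 coding genes had their outermost 5′ end inside a cluster. Of the 340 held clusters, 29 began within 10 kb of the 5′ end and 148 overlapped no exon of that gene. A cluster took up a median of 7.39% of the gene that held it, and these genes had a median span of 176974 bp.

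Of 21755 protein-coding genes, 411 were overlapped by a cluster (1.89%), compared to 13345 (61.3%) overlapped by at least 1 site. A TSS of the gene itself was inside the cluster for 265 of the 411. A cluster within 100 kb of the gene span was found for 1299 genes (5.97%). Overlapped genes were long, with a median span of 79108 bp compared to 17414 bp for all coding genes. By span in 4 equal groups, 0.644% of the shortest, 0.625 and 1.38% of the middle groups and 4.91% of the longest genes were overlapped.

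More than 1 cluster lay over 93 genes. Asap1, a GTPase-activating protein for ARF proteins, had 7 clusters with 82 sites over a span of 296063 bp. Maml2, a coactivator of Notch signalling, had 6 clusters with 94 sites. Adamtsl3, Ldlrad4 and Lpp had 5 each, with 99, 87 and 80 sites. Ldlrad4 encodes an inhibitor of TGF-beta signalling and Lpp a LIM protein of focal adhesions. The spans of these 5 genes ranged from 278757 to 599072 bp.

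Gene lists for fibroblast functions and for other cell types were then set beside these background shares. They were put together with earlier results of these data known, and no test was carried out, so that the counts describe the lists and nothing more. The clusters were most frequent in lists for matrix and actin genes. For comparison, 1.89% of all coding genes and 4.91% of the 25% longest had a cluster.

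Of 11 fibrillar collagen genes, 5 were overlapped by a cluster (45.5%). Col5a1, a regulator of collagen fibril assembly, had 3 clusters with 11, 19 and 11 sites, the first of them over its 5′ end (chr2:27883204-27907652). Col1a2 held 13 sites and Col3a1 12, both clusters in the 3′ part of the gene, 21986 and 24283 bp from the 5′ end. Col5a2 and Col1a1 were described above. The other 6 genes had no cluster, among them Col2a1, the cartilage collagen, with 1 site in its span.

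Of 35 further genes of the matrix, 13 had a cluster (37.1%). The basement membrane genes Col4a1 and Col4a2 lie head to head, and each held a cluster of 23 sites, 36113 and 56036 bp from its 5′ end. Col8a1 had 2 clusters of 10 sites. Sparc, a collagen-binding matricellular protein, had 19 sites over 31292 bp, which took in 93.4% of the gene. In contrast Fn1, which encodes fibronectin, had 44 sites in its span but no cluster, and Dcn and Lum, the small proteoglycans decorin and lumican, had no site at all.

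Of 38 genes of the actin cytoskeleton and focal adhesions, 16 had a cluster (42.1%). The 5 clusters of Lpp had 29, 16, 14, 11 and 10 sites. Mical2, an oxidase that acts on actin, had 5 clusters of 10 to 23 sites. Cald1, the actin-binding caldesmon, had 4 of 10 to 20 sites, and Filip1l had 5 of 10 to 15 sites. The 5 clusters of Filip1l also lay wholly inside Cmss1, and only the cluster of 13 sites had a site over an exon of Filip1l. Among the others were Mrtfa, Actn1, Itgav, Itgb5, Tpm1, Actn4, Acta2, Myh9, Tpm4, Vcl and Tagln. Acta2, smooth muscle actin and a marker of activated fibroblasts, had 16 sites that spanned 96.7% of the gene.

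Of 19 genes of the YAP, TAZ and TEAD group, which senses cell shape and stiffness, 6 had a cluster (31.6%). The transcription factor gene Tead1 had clusters of 23 and 18 sites, the first over its 5′ end. Crim1 had 3 clusters of 17, 10 and 10 sites, the kinase gene Lats2 13 sites and F3, the gene of tissue factor, 11 sites. Yap1 and Wwtr1 themselves had 31 and 37 sites but no cluster.

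Of 23 TGF-beta genes, 6 had a cluster (26.1%). Ltbp2, a latent TGF-beta binding protein family member, had 20 sites over 48493 bp including its 5′ end. Ltbp1 had clusters of 11 and 12 sites in the gene. Smad7 was described above.

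Of 22 mesenchymal transcription factor genes 4 had a cluster (18.2%), namely Runx2 with 3 clusters of 14, 13 and 10 sites, Tbx15 with 13, and Prrx2 and Runx1 with 10 each. Of 12 AP-1 genes only Fosl2 had one (8.33%), with 17 sites over 24916 bp. Jun had 2 sites in its span and a cluster 40045 bp away. Of 14 immediate early genes, Klf6 had 15 sites and Ier3 14. None of the 12 genes for KMT2 complex subunits, to which ASH2L belongs, and none of 29 cytosolic ribosomal protein genes had a cluster. At least 1 site was found in 11 and 29 of them. With a background of 1.89% of all coding genes, lists of this length would have few or no clusters in any case.

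Markers of cell types were read in the same way, against 1.89% of all coding genes with a cluster and 61.3% with a site. Among 12 fibroblast markers, 9 had a site and 3 had a cluster (Col1a1, Col1a2, Col3a1). None of the 9 epithelial, 8 neuronal, 8 blood cell, 7 endothelial, 6 skeletal muscle, 5 hepatocyte or 5 pluripotency markers had a cluster. At least 1 site was found in 2, 3, 3, 6, 0, 0 and 0 of them, respectively. With a background of 1.89%, lists this short would have few or no clusters in any case, and by sites alone the endothelial list was not below the fibroblast list.

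**Figure D4:**
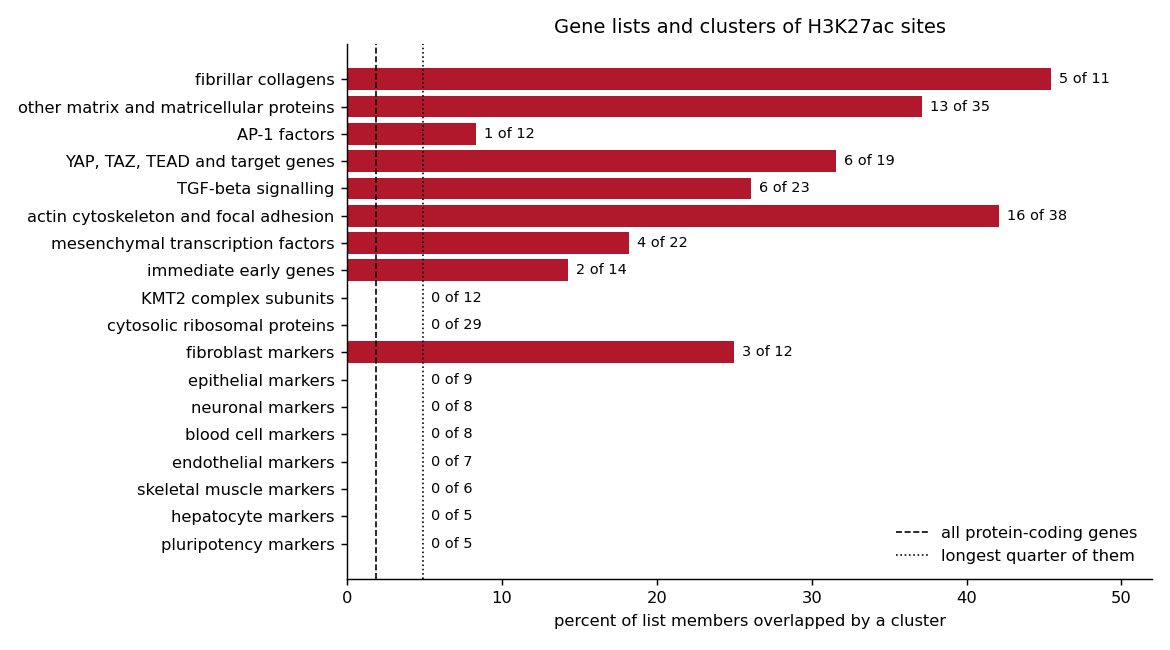
Percent of the members of each gene list that a cluster overlapped, with the count beside each bar. The dashed line marks all protein-coding genes (1.89%) and the dotted line the 25% longest of them (4.91%); the fibrillar collagens (5 of 11) and the actin and focal adhesion genes (16 of 38) have the longest bars, and the marker lists of other cell types are at 0.

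Exons were also compared with introns inside the clusters. In 258 of 353 clusters with exonic base pairs, exons were covered to a larger share than introns, with medians of 92.6 and 74.7%. These are medians over clusters, in which a cluster with few exonic base pairs counts as much as any other. Pooled over base pairs the difference was small. Exons made up 5.69% of the sites in clusters and 5.26% of the clusters, and introns 68.6 and 69.0%. Of the 492 clusters over a coding gene, the median share of sites that overlapped an exon was 10%, and 145 had no such site. In 7 clusters, a group chosen after its values were seen, the share was 80% or more. At Col3a1, 12 of 12 sites overlapped an exon, and 91.2% of the exonic base pairs were covered compared to 45.0% of the intronic ones. At Col1a2 it was 13 of 13 sites, with 74.3 and 71.7% covered, and at Col5a2 9 of 10 sites, with 44.8 and 26.7%. In the remaining 4, exons were covered less than introns. The shares were 59.4 and 77.0% at Eif4b and Tns2, 78.0 and 81.5% at Wdr38, Rpl35 and Arpc5l, 84.2 and 96.5% at the Hoxd genes, and 57.1 and 72.2% at Rps24.

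The Hoxd cluster is an example of a locus with many short genes. Its 15 sites spanned 43911 bp (chr2:74655212-74699122) and overlapped Evx2, Hoxd13, Hoxd12, Hoxd11, Hoxd10 and Hoxd9, developmental transcription factors of the limbs and the posterior body. Sites covered 88.0% of it, 12 of the 15 overlapped an exon, and it contained 12 TSS positions and 12 CGIs.

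The clusters also contained 26 microRNA genes, in 21 clusters, and 23 of these genes overlapped a site. This was 1.18% of 2196 annotated microRNA genes, compared to 1.89% of coding genes. They were singled out after their values were seen. A mature sequence was found in RefSeq (GRCm38.p6) for 18 of them. The arms known best are printed 5′ to 3′ with the seed, bases 2 to 8, in capitals.
miR-27b-3p: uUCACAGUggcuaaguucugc
miR-24-3p: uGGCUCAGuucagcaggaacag
miR-29a-3p: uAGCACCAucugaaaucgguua
miR-29b-3p: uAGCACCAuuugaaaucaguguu
miR-21a-5p: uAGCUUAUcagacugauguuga
miR-125b-5p: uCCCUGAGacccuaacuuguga
The first pair was in the 53-site cluster of chromosome 13. The miR-29 pair shared its seed, and both genes were in 1 cluster of 21 sites over 56778 bp (chr6:31056426-31113203). miR-29 is known to target collagen transcripts. Mir21a was in a cluster of 20 sites over 34557 bp (chr11:86566286-86600842), and Mir125b-1 in 12 sites over 17054 bp (chr9:41574556-41591609). Mirlet7a-2 was in a cluster of 11 sites nearby, but not over a site.

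The 125 clusters over no coding gene were a median of 73526 bp from the nearest one (range 1629 to 378117 bp), and 52 were more than 100 kb away. Their nearest genes numbered 95. Myc, the growth-promoting transcription factor, was nearest to 8 clusters with 137 sites, at 47164 to 330074 bp. Thbs1, which encodes the matricellular protein thrombospondin, was nearest to 7 with 94 sites, at 66247 to 378117 bp, and Rasgrp1 and Sorl1 were each nearest to 4. These genes were picked after their values were seen. The nearest gene is a matter of position and does not name a target.

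The farthest from any coding gene were a cluster of 10 sites on chromosome 2 (chr2:117724853-117733758, 378117 bp from Thbs1) and the clusters of Mirlet7a-2 and Mir125b-1 on chromosome 9, at 374048 and 373110 bp. The first overlapped no annotated gene and the other two overlapped only non-coding genes.

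Clusters often had further clusters as neighbours. Another one lay within 2 kb of 45 clusters (7.29%), and within 100 kb of 332 (53.8%). Joined at distances under 100 kb they formed 407 groups, of which 122 had 2 or more clusters and 41 had 3 or more. The largest group had 11 clusters with 184 sites over 533873 bp and ended at Thbs1 (chr2:117587466-118121338). The second had 8 clusters with 137 sites over 301176 bp downstream of Myc (chr15:62037539-62338714). It overlapped no coding gene. The group within Asap1 followed with 7 clusters, and groups at Maml2, at Dkk3 and Mical2, and at Farp1 and Stk24 had 6 each.

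By chromosome, clusters were most frequent on chromosome 15, with 51 or 49.0 per 100 Mb, which held 10.9% of the sites there. The X chromosome had 4, or 2.34 per 100 Mb, with 2.63% of its sites. Sites of any kind were also most frequent on chromosome 15 (69.1 per Mb) and least frequent on X (12.01 per Mb).

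The sites within clusters were compared with the 113553 other sites. Their median width was 525 bp compared to 393 bp, and it was larger on all 20 chromosomes. Widths above 2000 bp were found for 9.02% of them and 3.97% of the others. Sites of exactly 200 bp, the narrowest in the list, made up 2.62 and 6.01%. Width comes from the same starts and ends as the gaps, and wider sites leave shorter gaps, so that this difference is not independent of the rule. No test was made.

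The middle of 8.37% of cluster sites was within 1 kb of a TSS, compared to 19.5% of the others, and the share was lower on all 20 chromosomes. Wide sites that contain a TSS farther from their middle are not counted, and cluster sites were wider. How much this lowers their share was not tested. A CGI overlapped 2.60 and 11.1%, mean GC content was 47.5 and 49.7%, and mean repeat content 19.8 and 18.4%. Among sites beyond 1 kb of a TSS the median widths were 514 and 360 bp, again larger in clusters on all 20 chromosomes.

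Sites were wider towards the inside of a cluster. Counted from the nearer end, the median width was 420 bp for the outermost sites, 495.5, 527, 535.5 and 538 bp for the next 4 places, and 602 bp further in. Places from the 6th on exist only in clusters of 11 or more sites, which had wider sites in general, so that size and place are mixed in the last value. The quartiles overlapped widely, with 275 to 750 bp at the end and 355 to 1152 bp inside. The widest site was at an end in 73 clusters (11.8%), while 14.3% of the sites were end sites. Conversely, the middle was within 1 kb of a TSS for 11.3% of the outermost sites but 6.50% of the innermost. Wide sites that contain a TSS farther from their middle are not counted here, and the inner sites were wider.

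**Figure D5:**
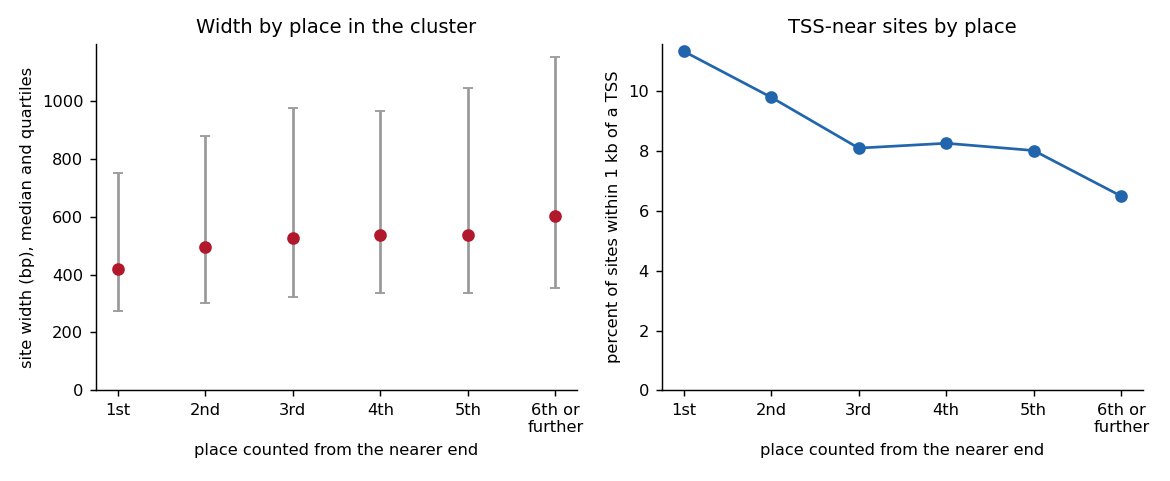
Sites of the 617 clusters by place, counted from the nearer end of the cluster. Left, median width in bp with bars from the lower to the upper quartile. Right, percent of sites whose middle is within 1 kb of a TSS. Median width rises from 420 to 602 bp towards the inside while the share near a TSS falls from 11.3 to 6.50%.

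Finally, the letters of known motifs were searched in the middle 200 bp of each site, on both strands and as exact matches. AP-1 (TGAGTCA), the motif of FOS and JUN dimers, was found in 4.64% of cluster sites (interval 4.22 to 5.11%) and in 5.83% of the other sites (interval 5.70 to 5.97%). Beyond 1 kb of a TSS it was 4.75 and 6.41%, and the share was higher in clusters on 2 of 20 chromosomes. Single sites away from TSSs held it most often, with 7.64%, followed by 6.09% in regions of 2 to 4 and 5.32% in regions of 5 to 9 sites. Over whole sites, matches per kb were 0.254 in clusters and 0.310 elsewhere.

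The other motifs were compared in the same way. TEAD (GGAATG) was in 11.9 and 12.4%, RUNX (TGTGGTT) in 5.11 and 4.76%, and an E-box (CAGCTG) in 11.998 and 13.4% of cluster and other sites. The GC box (GGGCGG), typical of CGI promoters, was in 3.64 and 7.42%. Beyond 1 kb of a TSS the shares were 11.9 and 13.03% for TEAD (higher in clusters on 2 of 20 chromosomes), 11.98 and 13.7% for the E-box, and 2.91 and 3.61% for the GC box. For RUNX the shares there were nearly equal, with 5.154 and 5.146% (higher in clusters on 11 of 20 chromosomes). A match is a stretch of letters and no evidence of binding.

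The gaps between sites were also read, where they had at least 200 bp. AP-1 letters were in the middle 200 bp of 3.80% of 4687 gaps in clusters (interval 3.29 to 4.38%), and in 7.69% of 31228 gaps in smaller regions. For the E-box it was 5.68 and 6.59%. Per kb, AP-1 matches in clusters numbered 0.254 in sites and 0.211 in gaps, and E-box matches 0.650 and 0.319. Outside clusters AP-1 matches numbered 0.310 in sites and 0.392 in gaps, and E-box matches 0.697 and 0.351. These sites and gaps are not matched sets. The sites include single sites, which have no gaps within a region, and sites near a TSS. Among other sites beyond 1 kb of a TSS, AP-1 matches numbered 0.364 per kb, closer to the value in gaps.

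Over their whole sites, 546 clusters had at least 1 AP-1 match and 71 had none, and the median was 3. Most matches, 24, were in the Myh9 cluster, which also covered more base pairs than any other. The Pvt1 and Nxn clusters had 16 each, the Dlgap1 cluster 13, and Col5a2 had none.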

How the data were processed

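Chromatin from iMEF cells was immunoprecipitated for H3K27ac, and per the labels the 14 libraries formed 8 groups. The authors trimmed reads with Trim Galore, aligned them to mm10 with BWA, filtered them after ENCODE, combined the replicates by Picard and used MACS for narrow peaks; its version, threshold and the way peaks were joined were not given in the sources used here. The submitters' processing notes also name SAMtools, deepTools and DESeq2. The authors deposited positions only (another unit than counts or signal), so that the list does not give the depth behind a site and no test was possible.

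Sites were joined and counted with pysam 0.24.0, numba 0.67.0, scipy 1.17.1, pandas 2.3.3 and numpy 2.4.6 under Python 3.11.15, and matplotlib 3.10.9 served for plots. Starts were taken as counted from 0 and are printed from 1. Genes and TSSs of all transcripts were from GENCODE M21, and sequence from GRCm38.p6, the build of the list. A site was near a TSS if its middle was within 1 kb. CGIs were runs of CpG (score 17 for CpG, -1 for other bases) of at least 200 bp, 50% GC and an observed to expected ratio of 0.6. Wilson intervals are 95% and ignore that neighbouring sites are not independent. The joining, counting, motif and CGI steps were tested on simulated data with planted answers.

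Clusters named were the 10 with most sites (ties by length), the 5 longest, the 3 most and 3 least covered, the 5 with most TSSs and the 3 farthest from coding genes, and genes named were the 5 with most clusters (ties by sites) and up to 4 per list. Exceptions are stated, and a few genes and 1 cluster that this rule names are not reported here. Members, lists and alternatives were chosen with earlier results of these data known.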

Additional observations from a re-analysis of the deposited data

Results flagged for a closer look

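Outside chromosomes 1 to 19 and X, 57 sites lay on 15 further sequences of the assembly, patches and other scaffolds. This is above the 3 counts that a count of 0 allows. Sequences of the assembly need not be free of sites, so that no conclusion is drawn from this. Joined by the same gap, the 57 sites formed 29 regions of at most 7 sites, the longest of 4772 bp, so that none would have been a cluster.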

How the results depend on the processing

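The 9 main values were recomputed under 62 alternatives, of which 27 stayed and 35 moved. A count stayed if it was within 1.5 times the main value, and a share or median if it was within the 95% interval. Neither limit applied to AP-1 matches per kb over whole sites, which were counted as staying because they were below those of other sites. The cause of the moves was not tested beyond what each setting changes by construction. The size of the set depended most on the limits. With gaps under 500 bp there were 152 clusters over 111 coding genes, with 82.8% covered, 42.8% with a TSS, 61.8% inside a coding gene and a width ratio of cluster to other sites of 1.61. With gaps under 2000 bp there were 1090 over 742 genes, with a median length of 15856.5 bp, 61.8% covered, 50.6% inside a gene and a ratio of 1.20. With 8 or more sites there were 1135 over 693 genes, with 10525 bp, 46.1% with a TSS and 9.23% of sites near a TSS. With 12 or more sites there were 353 over 250 genes, with 17400 bp, 58.1% with a TSS and a ratio of 1.37. Without the narrowest 25% of sites there were 327 over 244 genes, with 15868 bp, 77.2% covered, 57.2% with a TSS and a ratio of 1.26, and without sites of exactly 200 bp the ratio was 1.30.

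By definition, 34.2% had a coding TSS, 36.6% the outermost 5′ end of a gene, and 60.3% were inside any annotated gene. For 265 genes the TSS lay in the cluster. Sites near a TSS were 22.1% with a window of 3 kb and 3.99% with coding TSSs. Under the 6 settings that changed the sites, the gap or the number of sites, cluster sites were wider, less often near a TSS and less often with AP-1 letters than other sites. No paired analysis was possible because sites carry no value per sample, and for the same reason no library could be left out. The clusters cannot show a change with dTAG, an enhancer's target or the strength of the mark.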
